A study of Homo sapiens with 19 samples.

Results

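The comparison described here is between untreated (UT) macrophage-like THP-1 cells cultured for 48 h and the same kind of cells cultured for 24 h, with no vitamin C (vit C) added to either. THP-1 is a human acute monocytic leukemia cell line that stops dividing and becomes adherent and macrophage-like when exposed to phorbol myristate acetate (PMA). All cells received 30 nM PMA for 16 to 18 h and rested for 2 to 3 h before the time course began, so the controls at 24 h and the cells at 48 h share the PMA exposure and differ in time of culture. The arrays were chosen by their titles, and numbered 3 at 24 h and 2 at 48 h, 5 of the 19 arrays of the series. The other arrays hold UT cells at 8 h and 96 h and cells given 0.1 mM vit C at the same 4 times. Replicates are biological replicates of this line in the study's terms, and the adherent state depends on the drug, so the cells are a model of macrophages rather than primary cells.

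A PMA-treated monocytic cell leaves the cell cycle, attaches, and turns on genes for phagocytosis, lipid handling and cytokine release. Such a cell also secretes chemokines and matrix proteins, and responds to its own products, among them type I interferon and activin. The genes of DNA replication and those of mitosis are each switched on as a block in dividing cells, and each block has its own promoter-bound factors.

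Every array was a one-colour Agilent array, and the level of a probe is its log2 processed signal minus the 75th percentile of that array, so a level of 0 is the signal of the probe at that percentile. The 75th percentile signal lay between 290.2 and 456.8 on the 5 arrays, and between 57.5% and 64.7% of probes were well above background. No spot was saturated on any array of the series. Across all 50238 probes, the correlation of levels was 0.98 between arrays of 24 h, 0.99 between the pair of 48 h, and 0.98 between times, as a description only. All 5 arrays sat on one slide. A total of 29906 probes, for 19814 gene names, cleared background throughout the arrays of 24 h or throughout those of 48 h, and 27378 of them did so on all 5 arrays. The test was limma's, with Benjamini-Hochberg adjustment over all probes, and every adjusted p below is from it. A gene was called when such a probe changed at least 2-fold with an adjusted p no higher than 0.05, and left out when its probes moved in opposite directions, as those of 1900 gene names did. P-values measure the spread between cultures of 1 cell line.

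Of 17914 genes tested, 1234 were called (6.89%). Of these, 905 were higher at 48 h (5.05%) and 329 were lower (1.84%), and these shares are the background for the list counts below. A gene could enter through the time at which it was high alone. The brightest probe was well above background on all 5 arrays in 1008 of the 1234, and 973 genes were called among probes detected throughout both times. The median log2 fold change over all genes tested was -0.05, with quartiles of -0.32 and 0.31. The brightest probe did not overlap between the times in 1206 of the 1234. A call itself selects for such separation, and the share over all genes tested is not given, so this count describes the calls only. The brightest probe rose by at least 4-fold in 171 called genes and fell by that much in 23. A current gene symbol was found for 739 of the genes that rose and 237 of those that fell. Among genes with a clone or transcript name only and a brightest probe well above background on all 5 arrays, the largest rise was that of AK001903, by 3.81 on the log2 scale (SE 0.22, adjusted p = 8.6e-07), and the largest such fall was that of BX114358, which fell by 2.08 (SE 0.52, adjusted p = 0.034), a call lost on leaving out any 1 of the 5 arrays. Of 131 named genes called by their brightest probe, 85 kept the call on leaving out each array in turn, and the calls lost are given with the genes below, with the highest adjusted p over 13 other settings. A call lost without either 48 h array was lost on leaving out the one and on leaving out the other. With another background correction, normexp, the change was over 1.5 times smaller on the linear scale in 40 of the 131 and over 1.5 times larger in 0, and 30 of the 131 lost their call. Where that correction moved a named change by so much or ended its call, its log2 value is given. It was 2.87 for AK001903 and -0.98, not called, for BX114358. Values are those of the brightest probe unless another is named, and a dimmer probe did not pass for SERPINB2 (0.34), MITF (-0.48), SCD (0.67), ME1 (-0.76), FCGR2B (0.79), PDGFRA (1.17), CYBB (-1.18), VEGFA (1.30), PSAP (-1.30), NDRG1 (1.34), ITGB3 (1.49), PHGDH (1.99) or KIAA0930 (-1.07 and -1.15 on a pair of probes), beside those given with the genes.

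**Figure D1:**
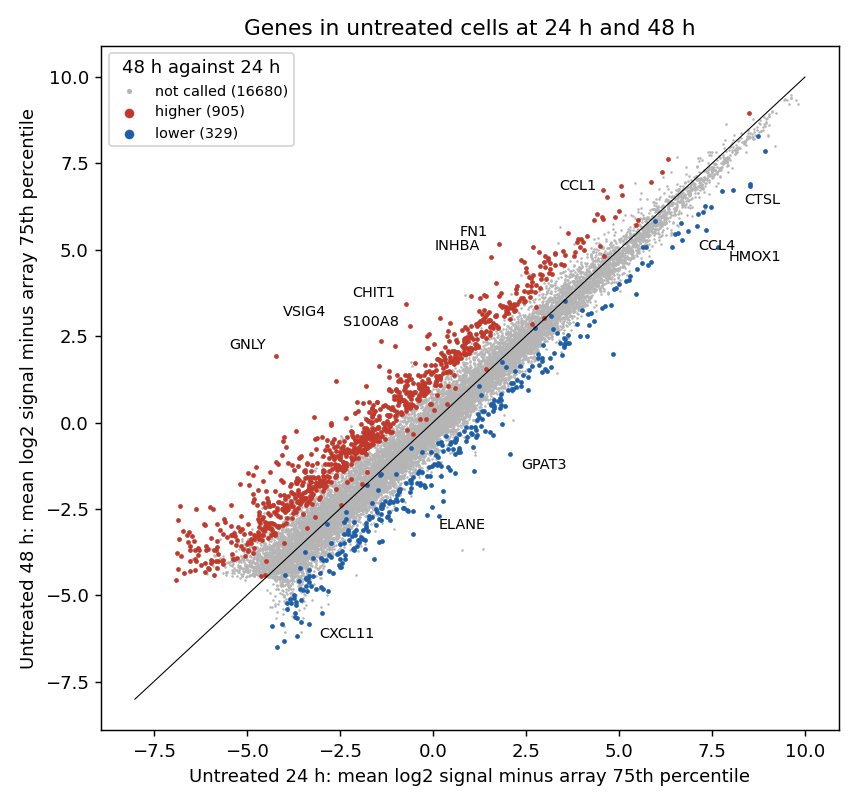
Mean level of each tested gene at 24 h (x axis, 3 arrays) and at 48 h (y axis, 2 arrays), in log2 signal minus the array's 75th percentile, for the brightest probe of the gene; the line marks equal levels. The 905 genes called higher (red) lie above the line and outnumber the 329 called lower (blue).

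The macrophage label was checked against markers first. Of 17 macrophage marker genes on the array, 15 were well above background on all 5 arrays by their brightest probe and MRC1, the mannose receptor, on none. Genes of the myeloid surface and its signalling did not pass the test: the log2 changes were -0.20 for CSF1R (95% CI -0.59 to 0.19), -0.11 for ITGAM (-0.46 to 0.24), -0.09 for ITGAX (-0.53 to 0.36), -0.02 for TYROBP (-0.40 to 0.36), 0.22 for FCER1G (-0.16 to 0.60), 0.44 for AIF1 (0.05 to 0.84), -0.21 for ADGRE5 (-0.62 to 0.19), -0.27 for LAPTM5 (-0.95 to 0.41), -0.67 for SPI1 (-1.33 to -0.01), -0.79 for CD163 (-1.34 to -0.24) and -1.25 for CD68 (-2.09 to -0.41). CD14, the lipopolysaccharide co-receptor, was the 1 marker that rose: its levels were 2.92, 2.98 and 3.18 at 24 h and 4.88 and 4.76 at 48 h, a 3.46-fold difference (log2 1.79, SE 0.26, adjusted p = 0.00097). There were 4 markers called lower. They were LYZ (lysozyme), CYBB (the phagocyte oxidase), CD36 and MSR1 (scavenger receptors), and MSR1 passed on only 1 of its 3 probes, its brightest probe giving -0.38 with an adjusted p of 0.60. The call was lost for LYZ without the 48 h replicate 2 (adjusted p up to 0.18) and with normexp (-0.66), for CD36 without either 48 h array (up to 0.12), and for CYBB without the 24 h replicate 1 or 2 or either of 48 h (up to 0.16).

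Markers of other cell types were measured beside these. For T and B lymphocytes, 4 of 12 markers were well above background on all 5 arrays, CD3D, LCK, MS4A1, CD79B and BLK on none, and none was called. For epithelium it was 3 of 9, with EPCAM and CDH1 on none and none called. For endothelium it was 4 of 8, with CDH5, KDR, TEK and EMCN on no array. The summed linear signal of the endothelial list, relative to the 75th percentile, ran from 14.6 to 17.0 at 24 h and from 37.8 to 39.5 at 48 h. PECAM1, an adhesion molecule that myeloid cells also carry, rose within it (levels 4.03, 3.78 and 3.85 against 5.20 and 5.27, log2 1.35), and VWF, von Willebrand factor, fell (-1.43, -1.42 and -1.22 against -2.37 and -2.58, log2 -1.12, adjusted p = 0.0048, lost without the 48 h replicate 2 and, at -0.60, with normexp). For fibroblasts it was 5 of 10, with COL1A2 and LUM on none, and the sums were 13.5 to 20.6 against 22.1 to 22.6. The fibroblast genes called higher were DCN (decorin, a matrix proteoglycan) and the receptors PDGFRA and PDGFRB, PDGFRA not without either 48 h array (adjusted p up to 0.079). DCN was well above background on 1 of the 3 arrays of 24 h. With normexp DCN changed by 1.45 and PDGFRB, no longer called, by 0.97. In bulk RNA, fewer cells of a kind and less RNA per cell cannot be told apart, and the part of other cells in these results was not tested.

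The clearest group was that of mitosis. Of 29 mitotic genes tested, 26 rose, none fell, and all 29 had values above 0, with a median log2 change of 1.80 beside the median of -0.05 over all genes. NDC80, which links kinetochores to microtubules, had levels of 1.29, 1.22 and 1.26 at 24 h and of 3.49 and 3.70 at 48 h. That is a 5.07-fold rise (log2 2.34, SE 0.20, adjusted p = 2.5e-05). NUF2, its partner in the same complex, read -0.19, -0.67 and -0.56 against 1.63 and 1.83 (log2 2.21, SE 0.30, adjusted p = 0.00065). ASPM, a spindle pole protein, read 0.26, -0.13 and 0.00 against 2.17 and 2.402 (log2 2.24, SE 0.30, adjusted p = 0.00057). HMMR, which acts at the spindle, read 1.80, 1.22 and 1.27 against 3.55 and 3.75 (log2 2.22, SE 0.26, adjusted p = 0.00019). In each of these genes both 48 h arrays stood above all 3 of 24 h. The other members called ranged from the kinase AURKB (log2 1.39) to CENPF (2.19), and included CDK1 (1.81) and its cyclins CCNB1 (1.61) and CCNA2 (1.80), the proliferation antigen MKI67 (2.02), BIRC5 (2.07) and the checkpoint kinases BUB1 (1.80) and TTK (1.85). The 3 that did not pass had values of 0.88 (AURKA), 1.27 (MAD2L1) and 1.32 (TOP2A). PIMREG, a mitotic regulator outside the list, was among the largest rises of all genes, with -1.69, -1.93 and -1.74 at 24 h and 1.00 and 1.12 at 48 h.

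DNA replication genes rose less. Of 32 tested, 20 rose, none fell, and all 32 had values above 0, with a median of 1.16. The 20 became 13 without the 48 h replicate 2. The largest rises were those of TYMS, thymidylate synthase, with levels of 2.93, 3.01 and 2.73 against 4.43 and 4.64 (3.13-fold, log2 1.65, SE 0.25, adjusted p = 0.0014), DTL (log2 1.63), GINS1 (1.58, well above background on 2 of the 3 arrays of 24 h, and 0.59, not called, with normexp) and the origin licensing factor CDC6 (1.51). CDC6 read 0.61, 0.57 and 0.50 against 1.98 and 2.17. The clamp PCNA rose by 1.39, and among the helicase subunits MCM3 (1.24), MCM4 (1.14) and MCM7 (1.12) rose while MCM2 and MCM5 did not pass, at 0.96 and 0.83, and MCM6, at 0.91 with an adjusted p of 0.033, fell short of 2-fold. The cyclin and CDK inhibitor list did not move as a block: 2 of 14 rose, CDKN2D, an inhibitor of the G1 kinases (1.53, 1.19 and 1.06 against 2.93 and 2.94, log2 1.68, adjusted p = 0.00036), and CCNG2 (1.05, lost in 8 of 13 settings, without either 48 h array and normexp, at 0.89, among them, adjusted p up to 0.26), and CDKN1A did not pass at -0.62.

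Promoter sequence was examined for the mitotic genes because they moved together and because such genes are known to carry a cell cycle homology region (CHR). The RefSeq promoter table (GRCh38.p14, 250 bases before to 50 after each start) held 23 of the 26 that rose. The CHR letters TTTGAA or TTCGAA, on either strand, were in 17 of the 23 (73.9%), against 16.4% of all 35116 promoters, and the CCAAT box was also in 17, against 34.6%. Of the 19 DNA replication genes matched, 1 held the CHR letters (5.26%) and 13 the CCAAT box (68.4%). A match is a description of letters in the window and no measure of binding. Stretches of 80 bases are shown for the 3 mitotic genes with the largest changes whose windows held a match before the start, read 5′ to 3′ on the strand of the gene, with the CHR letters in capitals.
ASPM, chr1:197146740-197146819, minus strand: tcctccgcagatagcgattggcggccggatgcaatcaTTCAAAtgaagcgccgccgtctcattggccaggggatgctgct
HMMR, chr5:163460552-163460631, plus strand: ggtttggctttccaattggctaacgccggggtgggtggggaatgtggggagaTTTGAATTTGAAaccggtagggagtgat
DLGAP5, chr14:55191652-55191731, minus strand: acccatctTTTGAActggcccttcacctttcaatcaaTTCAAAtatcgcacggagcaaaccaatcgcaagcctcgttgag
HMMR holds 2 copies side by side, ending 16 bases before the start, and DLGAP5 holds 2 copies that lie apart.

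Metallothioneins, small zinc and copper binding proteins, rose together. Of the 11 genes of metallothioneins and zinc transport tested, 9 rose and none fell, and the median log2 change was 1.47. All 9 were metallothioneins, from MT1A (1.16) to MT1G (1.67). MT1G had levels of 3.25, 2.89 and 3.14 at 24 h and 4.73 and 4.80 at 48 h (3.19-fold, SE of the log2 change 0.20, adjusted p = 0.00025). MT1B read 2.62, 2.73 and 2.73 against 4.25 and 4.31, MT1L read 2.69, 2.49 and 2.73 against 4.18 and 4.18, and MT1H read 2.90, 3.07 and 3.06 against 4.45 and 4.55. The arrays of a time lay close together and the times did not overlap. These genes are near copies of each other, so their probes may read the same transcripts and the 9 are not 9 separate observations. MTF1, the zinc sensor that drives them, did not pass at -0.43, nor did the zinc importer SLC39A10 at 1.24. Metal response elements, spelled as TGCACNC or TGCGCNC on either strand, were in all 4 of the metallothionein promoters that the table holds and in 29.6% of all promoters, as well as in 12 of the 23 mitotic promoters and 13 of the 19 of DNA replication. The stretches for the 3 with the largest changes are given with those letters in capitals.
MT1B, chr16:56651797-56651876, plus strand: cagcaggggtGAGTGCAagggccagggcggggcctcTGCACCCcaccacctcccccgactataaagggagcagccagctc
MT1H, chr16:56669734-56669813, plus strand: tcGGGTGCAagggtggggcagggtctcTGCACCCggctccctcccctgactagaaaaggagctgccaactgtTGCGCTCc
MT2A, chr16:56608504-56608583, plus strand: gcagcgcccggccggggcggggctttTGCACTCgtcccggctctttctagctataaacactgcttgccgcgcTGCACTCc
The whole windows held 3, 8 and 7 such matches, in that order.

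Interferon-stimulated genes fell. Of 31 tested, 13 fell and none rose, 1 had a value above 0, and the median was -0.998. The 13 became 7 without the 48 h replicate 1 and 8 in a fit of the 5 arrays alone. IFIT1, which binds foreign RNA, had levels of 3.25, 3.07 and 2.89 at 24 h and 1.46 and 1.55 at 48 h and so fell by 1.57 on the log2 scale (2.97-fold, SE 0.25, adjusted p = 0.0018). OASL read 0.56, 0.51 and 0.96 against -0.98 and -0.74 (log2 -1.53, SE 0.26, adjusted p = 0.0027). IFIT3 read -0.27, 0.50 and 0.46 against -1.30 and -1.23, and IFI44L read -0.47, 0.02 and 0.02 against -1.69 and -1.43. IFIT3 lost the call without either 48 h array (adjusted p up to 0.09), and IFI44L without replicate 1 of them (up to 0.057) and with normexp (-0.98). The others that fell were the antiviral effectors ISG20 (-1.38), RSAD2 (-1.35), OAS1 (-1.34), ISG15 (-1.21), MX2 (-1.21), OAS2 (-1.17), MX1 (-1.16) and OAS3 (-1.07), and the RNA sensor RIGI (-1.01, DDX58 on the array). The signalling factors STAT2, IRF7 and IRF9 did not pass, at -0.61, -0.61 and -0.65. The interferon-stimulated response element, searched as TTTC, any 2 bases and TTTC on either strand, was in 7 of the 9 promoters matched (77.8%) and in 3.57% of all promoters. The 3 with the largest falls whose windows held a match are shown with it in capitals.
IFIT1, chr10:89392485-89392564, plus strand: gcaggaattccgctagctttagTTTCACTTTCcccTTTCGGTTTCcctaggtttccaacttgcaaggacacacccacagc
IFIT3, chr10:89327840-89327919, plus strand: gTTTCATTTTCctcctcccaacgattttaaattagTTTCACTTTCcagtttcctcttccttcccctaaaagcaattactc
IFI44L, chr1:78620340-78620419, plus strand: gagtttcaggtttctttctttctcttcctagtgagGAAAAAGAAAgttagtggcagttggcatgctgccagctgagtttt
IFIT1 and IFIT3 each show 2 copies.

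**Figure D2:**
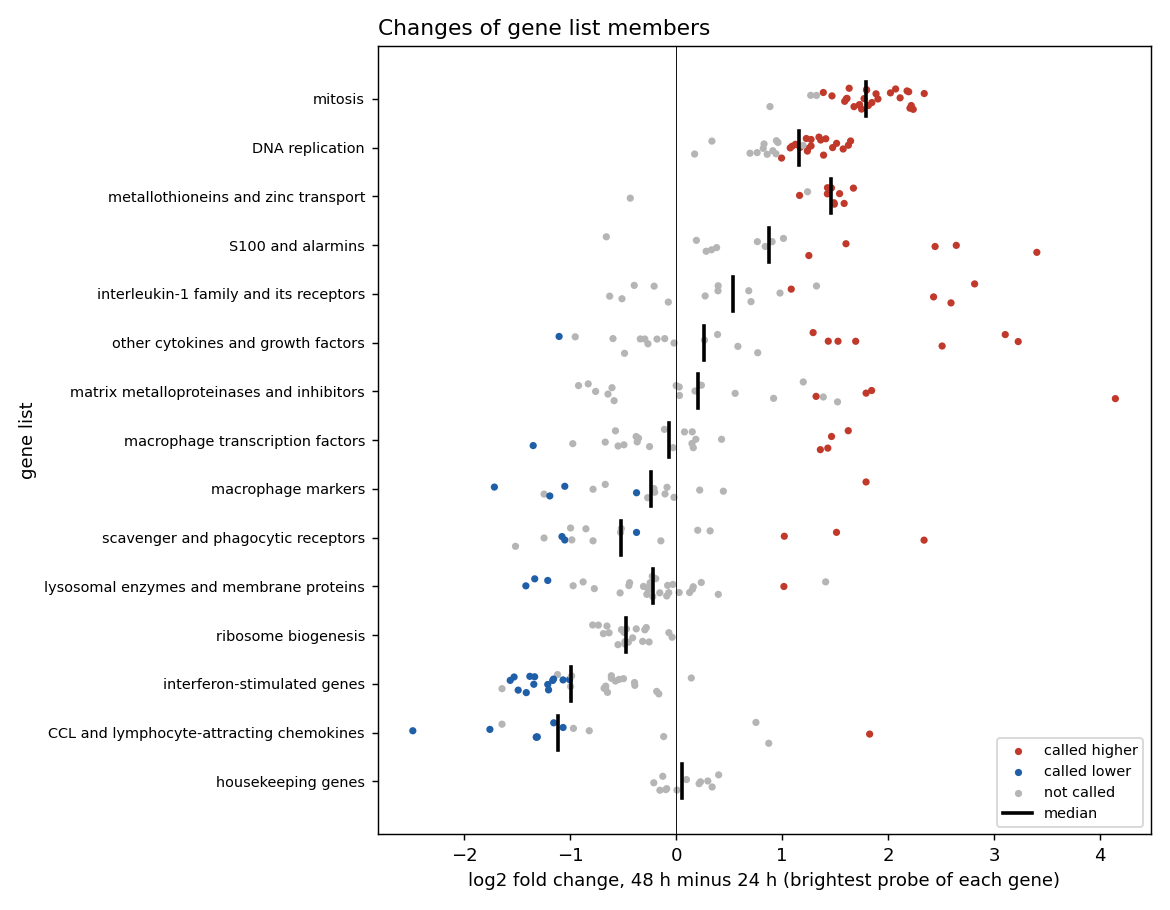
Log2 fold change from 24 h to 48 h of each tested member of 15 gene lists (x axis), 1 point per gene by its brightest probe, in red when called higher, blue when called lower and grey otherwise, with a bar at the list's median. The mitosis and DNA replication points lie to the right of 0, as do the metallothionein list's other than MTF1 at -0.43, and the interferon-stimulated and CCL chemokine points mostly to the left.

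Of 14 CCL and lymphocyte-attracting chemokines tested, 7 fell and 1 rose, with a median of -1.11. The 7 became 4 without the 48 h replicate 1 and 5 in a fit of the 5 arrays alone. CCL4, a chemoattractant of monocytes and T cells, read 6.94, 6.65 and 6.97 at 24 h and 5.46 and 5.60 at 48 h (log2 -1.32, SE 0.17, adjusted p = 0.0005). Its near copy CCL4L2 (-1.76), CCL3 (-1.07) and CCL3L3 (-1.16) fell as well, and probes of these copies may share transcripts. CCL8 (-1.32) and CCL23 (-1.31) also fell, CCL8 with a call lost in 6 of 13 settings, without either 48 h array among them (adjusted p up to 0.25). CXCL11 read -3.02, -3.40 and -3.57 at 24 h and was not well above background on either 48 h array (adjusted p = 0.018), and its call was lost without the 24 h replicate 1, without the 48 h replicate 2 and with normexp (-0.45). CXCL10 did not pass at -1.65. CCL1, a ligand of CCR8, went the other way, from 4.68, 4.88 and 4.51 to 6.49 and 6.55 (3.55-fold, SE of the log2 change 0.23, adjusted p = 0.00033). Among the 7 neutrophil-attracting CXC chemokines tested, CXCL5 (0.79, 0.40 and 0.16 against 2.84 and 2.92, log2 2.43, adjusted p = 0.00043) and PPBP (log2 1.69) rose, none fell, and 4 of the 7 had values above 0. PPBP lost its call in 6 of 13 settings, without either 48 h array and normexp, at 0.86, among them (adjusted p up to 0.14).

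Several secreted cytokines rose to a large extent. INHBA, which encodes the subunit of activin A, read 1.73, 1.48 and 1.47 at 24 h and 4.97 and 4.61 at 48 h, a 9.37-fold rise (log2 3.23, SE 0.17, adjusted p = 4e-07). IL6 read -4.15, -3.72 and -4.25, well above background on 2 of these 3 arrays, against -0.81 and -1.06 (8.61-fold, SE of the log2 change 0.34, adjusted p = 0.00015). Of the 21 other cytokines and growth factors tested, 7 rose and 1 fell. Besides INHBA and IL6, those that rose were IL24 (2.51), CSF1 (1.69), VEGFA (1.53), IL23A (1.44) and IL11 (1.29), and the death ligand TNFSF10 fell by 1.11. The calls of VEGFA (adjusted p up to 0.24) and TNFSF10 (up to 0.60) were lost on leaving out any 1 of the 5 arrays, and those of CSF1 (up to 0.13) and IL24 (up to 0.088) without the 48 h replicate 1. IL24 was well above background on 1 of the 3 arrays of 24 h, and with normexp its change was 0.98, that of CSF1 0.77 and that of TNFSF10 -0.33, none of them called, and that of IL6 was 1.52. TNF and TGFB1 did not pass, at -0.27 and -0.11. In the interleukin-1 family, 4 of 16 rose and none fell. IL1R2, a decoy receptor that captures interleukin-1, rose from 0.33, 0.24 and 0.02 to 2.88 and 3.15 (7.05-fold, SE of the log2 change 0.26, adjusted p = 4e-05), and IL36G by 1.09, not called without the 48 h replicate 2 or with normexp (0.64). IL36B and IL36RN were well above background on no array of 24 h and on both of 48 h, 2.21-fold and 2.18-fold higher as bounds. These calls were lost without either 48 h array, without the 24 h replicate 2 and with a signal floor of 20. That of IL36B was also lost without the 24 h replicate 3 and with either replicate block. With normexp the changes of IL36B and IL36RN were 0.48 and 0.46, so the bounds hold only for the main background setting. IL1B and IL1A did not pass, at -0.21 and 0.98. TNFRSF11B, osteoprotegerin, a soluble decoy receptor for RANKL, rose from -2.91, -2.66 and -3.97 to 0.09 and 0.21 (10.1-fold, SE of the log2 change 0.37, adjusted p = 0.00015). It was the 1 member of 18 cytokine signalling inhibitors to rise, and its change was 2.00 with normexp.

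Of 19 genes of NF-kappa-B feedback, 1 fell, TRAF1, from 3.46, 3.48 and 3.52 to 2.05 and 1.85, none rose, and 3 had values above 0. Of 28 AP-1 and immediate early genes, 1 fell, KLF6, through 1 of its 3 probes (-1.27, adjusted p = 0.0077), its brightest giving -0.59. Across all genes tested 1.84% fell and 5.05% rose. In the S100 and alarmin list 5 of 14 rose and none fell, and 13 had values above 0. The 5 became 3 with normexp. S100A8, a subunit of calprotectin, rose from -0.64, -0.83 and -0.39 to 2.62 and 2.95 (10.6-fold, SE of the log2 change 0.29, adjusted p = 2.2e-05). S100A9, the other subunit, rose from -3.20, -2.76 and -3.34 to -0.51 and -0.40 (6.25-fold, adjusted p = 0.0017, and log2 1.62 with normexp). HMGB2 (1.60), S100A12 (1.25) and S100B (2.44, well above background on 1 array of 24 h, and 0.69 with normexp) completed the group.

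The largest rise of all called genes was that of GNLY, granulysin, an antimicrobial protein best known from cytotoxic lymphocytes. It was named after its values were seen, since 1 of the 3 arrays of 24 h was not well above background. Its levels were -4.20, -3.87 and -4.52 at 24 h and 1.97 and 1.88 at 48 h, a 69.8-fold difference (log2 6.12, SE 0.23, 95% CI 5.63 to 6.62, adjusted p = 1e-08). The log2 change was 4.07 with normexp, and it was called in all 13 settings. The lymphocyte marker list showed no call beside it, as given above.

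**Figure D3:**
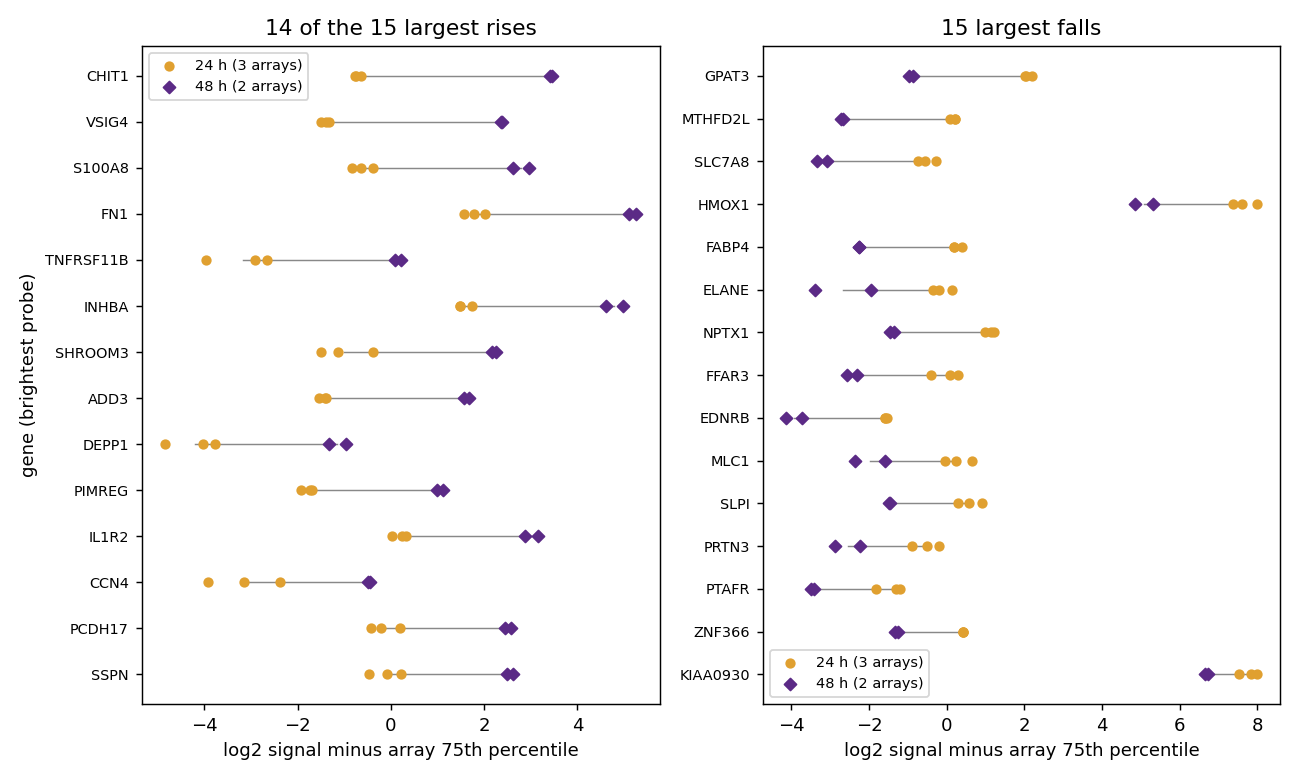
Level on each array (x axis, log2 signal minus the array's 75th percentile) of 14 of the 15 genes with the largest rises (left) and the 15 with the largest falls (right) on any called probe well above background on all 5 arrays, drawn and ordered by the brightest probe, with circles for the 3 arrays of 24 h, diamonds for the 2 of 48 h and a line between the means. In each gene the circles and diamonds do not overlap, but genes were chosen by a called probe without such overlap, so this was a condition of the choice.

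The largest rises among genes measured on all 5 arrays held surface and secreted proteins of macrophages beside the genes already given. CHIT1, chitotriosidase, a chitin-degrading enzyme made by lipid-laden macrophages, rose from -0.77, -0.75 and -0.63 to 3.45 and 3.40 (17.7-fold, log2 4.15, SE 0.26, adjusted p = 1.6e-06). VSIG4, a complement receptor of tissue macrophages, rose from -1.39, -1.50 and -1.32 to 2.35 and 2.38 (13.7-fold, SE of the log2 change 0.17, adjusted p = 4.3e-08). FN1, fibronectin, rose on all 3 of its probes, by 3.39, 4.01 and 3.01, and its brightest probe read 1.78, 2.01 and 1.57 against 5.10 and 5.26. ADD3, a membrane skeleton protein, rose from -1.40, -1.55 and -1.41 to 1.57 and 1.68 (log2 3.08, adjusted p = 1.6e-06). SHROOM3, which organises apical actin, rose by 3.22, the hypoxia- and FOXO-responsive DEPP1 by 3.06, the matricellular protein CCN4 by 2.68, the protocadherin PCDH17 by 2.67 and sarcospan, SSPN, by 2.66. With normexp DEPP1 rose by 1.47 and CCN4 by 1.67.

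A probe that was well above background on no array of 24 h, or on none of 48 h, gives only a lower bound of its change. A bound depends on the background setting, and with normexp the brightest probes of CXXC4, STATH, ENPP1 and FGL1 changed by 1.01, 0.77, 1.04 and -0.50. Bounds were ranked among called genes with a current symbol only. The highest of these were those of a second probe of CXCL5 (at least 5.64-fold higher at 48 h), CXXC4 (5.19-fold), a second probe of PCDH17 (4.11-fold), STATH (3.95-fold) and a second probe of ENPP1 (3.85-fold). The brightest probes of CXCL5, PCDH17 and ENPP1 were measured on all 5 arrays and rose by 2.43, 2.67 and 1.76 on the log2 scale. Those of CXCL5 and ENPP1 rose by less than the bounds of their second probes. The bound of STATH is also from a probe other than its brightest, and another probe of it did not pass (2.03, adjusted p = 0.11). In the other direction they were those of FGL1 (at least 3.14-fold lower), TIFAB (3.03-fold), IL7R (2.88-fold), DAPL1 (2.72-fold) and KLRG2 (2.71-fold). The bounds of IL7R, KLRG2, TIFAB and DAPL1 come from dimmer probes. The brightest probes of the first 3, measured on all arrays, gave smaller log2 changes of -0.71 for IL7R (adjusted p = 0.11) and -1.26 for KLRG2 (adjusted p = 0.14), which did not pass, and of -1.52 for TIFAB, which did. The brightest probe of DAPL1, well above background on no array of 48 h, gave -1.59. It was not called without the 48 h replicate 1, and with normexp neither it (-0.32) nor that of TIFAB (-0.64) was called.

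Scavenger and lipid genes moved in both directions. Over all genes tested, 5.05% were called higher and 1.84% lower. Of 17 scavenger and phagocytic receptors, 3 rose and 3 fell, with a median of -0.53. MARCO, which takes up particles and bacteria, rose from -1.20, -0.66 and -1.03 to 1.43 and 1.32 (5.06-fold, adjusted p = 9e-05), TREM1 by 1.51 and TIMD4 by 1.02, TIMD4 not without the 24 h replicate 2 or 3 or either 48 h array (adjusted p up to 0.12). With normexp neither was called, at 0.66 and 0.75. CD36 fell from 5.37, 5.26 and 5.29 to 4.15 and 4.35 (log2 -1.05, adjusted p = 0.0096), and MERTK, an efferocytosis receptor, fell on 2 of its 4 probes (-1.23 and -1.18). The call of CD36 was also lost with quantile normalization. ABCG1, a cholesterol exporter, was the 1 of 18 efflux and lipoprotein genes to rise, from -3.38, -3.33 and -4.28, well above background on 2 of the 3 arrays, to -0.07 and -0.44 (10.6-fold, log2 3.41, SE 0.50, adjusted p = 0.001). The log2 change was 1.96 with normexp. Of 17 genes of PPAR receptors and lipid storage, 3 fell and none rose: FABP4, the fatty acid binding protein (log2 -2.53, adjusted p = 0.03, lost on leaving out any 1 of the 5 arrays, and -1.85 with normexp), the droplet coat protein PLIN2 (-1.13, adjusted p 0.052 without the 48 h replicate 2) and FABP5, through 1 of its 4 probes (-1.31). In sterol and fatty acid synthesis SCD rose (1.16, adjusted p = 0.049, lost on leaving out any 1 of the 5 arrays) and 21 of 22 did not pass.

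The largest falls were led by GPAT3, a glycerol phosphate acyltransferase of triglyceride synthesis, listed on the array as MAG1. Its levels were 2.19, 2.03 and 2.02 at 24 h and -0.86 and -0.97 at 48 h, and it fell by 2.99 on the log2 scale (7.97-fold, SE 0.23, adjusted p = 1.2e-05). MTHFD2L, a mitochondrial folate enzyme, read 0.22, 0.21 and 0.09 against -2.68 and -2.73 (log2 -2.87, adjusted p = 0.00011) on its brightest probe. A second probe of MTHFD2L, also measured on all 5 arrays, gave -0.08 (adjusted p = 1.0), so its probes disagree. HMOX1, heme oxygenase, read 7.98, 7.36 and 7.61 against 4.85 and 5.32 (5.92-fold lower, SE of the log2 change 0.25, adjusted p = 5.5e-05). Of the 22 NRF2 targets and antioxidant genes tested, HMOX1 and ME1 (-1.08, lost on leaving out any 1 of the 5 arrays) fell and none rose. The amino acid carrier SLC7A8 fell by 2.69, the pentraxin NPTX1 by 2.52, the short chain fatty acid receptor FFAR3 by 2.43, the endothelin receptor EDNRB by 2.37, MLC1 by 2.26, the protease inhibitor SLPI by 2.07, the platelet activating factor receptor PTAFR by 2.02, the repressor ZNF366 by 1.71 and KIAA0930 by 1.08 on their brightest probes, the last not called on that probe without the 24 h replicate 1 or either 48 h array (adjusted p up to 0.093). KIAA0930 was also not called on that probe with quantile normalization. With normexp the change was -1.98 for MTHFD2L, -1.59 for SLC7A8, -1.62 for FFAR3, -1.10 for EDNRB and -1.01 for PTAFR. HAMP, hepcidin, the hormone that closes the iron exporter, read 0.51, 0.32 and 0.55 against -1.34 and -1.39 (log2 -1.83, SE 0.18, adjusted p = 5.5e-05), and was the 1 of 9 iron genes tested to change.

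Some primary granule genes of the myeloid precursor fell. ELANE, neutrophil elastase, read -0.36, -0.21 and 0.13 at 24 h and -1.95 and -3.39 at 48 h (log2 -2.52, SE 0.41, adjusted p = 0.0022). PRTN3, proteinase 3, read -0.89, -0.51 and -0.20 against -2.23 and -2.87 (log2 -2.02, SE 0.31, adjusted p = 0.0014), and AZU1, azurocidin, read -0.24, -0.38 and 0.03 against -1.76 and -1.98 (log2 -1.67, SE 0.30, adjusted p = 0.004). Without the 48 h replicate 2, the adjusted p of ELANE was 0.051 and that of AZU1 0.060. With normexp ELANE changed by -1.65 and PRTN3 by -1.15. CTSG did not pass at -2.08. Of 9 markers of undifferentiated myeloid cells tested, these 3 fell, and 2 rose, the transcription factor GFI1 (1.36) and the receptor KIT, which was well above background on no array of 24 h and at least 2.39-fold higher at 48 h, a change of 0.46 on the log2 scale with normexp that was not called. KIT also lost its call with a signal floor of 20. MPO, CD34 and MS4A3 were well above background on no array. The summed linear signal of the list ran from 11.2 to 18.0 at 24 h and from 6.84 to 10.6 at 48 h.

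Lysosome and transcription factor genes changed in few members. The shares over all genes tested were 5.05% higher and 1.84% lower. Of 30 lysosomal genes tested, 3 fell, the acid lipase LIPA (6.96, 6.61 and 6.52 against 5.20 and 5.36, log2 -1.42, adjusted p = 0.001), the protease CTSL (7.83, 8.20 and 8.19 against 6.69 and 6.78, log2 -1.34) and PSAP (-1.21), and the protease CTSK rose (1.02). PSAP lost its call in 9 of 13 settings (adjusted p up to 0.34) and CTSK in 5 (up to 0.12), without either 48 h array among them. Of 10 genes of the proton pump and its regulators, MITF fell (-1.03, adjusted p 0.060 without the 48 h replicate 2). Of 22 macrophage transcription factors tested, 4 rose, the inhibitors of differentiation ID1 (1.43) and ID3 (1.47), the rhythm regulator BHLHE41 (1.62) and GFI1. In eicosanoid synthesis ALOX5, the first enzyme of the leukotriene pathway, rose from 2.34, 2.27 and 2.10 to 3.90 and 3.86 (3.12-fold, adjusted p = 0.00016), as did its helper ALOX5AP (1.05, not called without the 24 h replicate 2 or the 48 h replicate 2) and PTGDS (1.22), and PLA2G7, which degrades platelet activating factor, fell by 1.92, of 12 tested.

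Matrix and adhesion genes gave a mixed picture. Beside these lists, 5.05% of all genes tested were called higher and 1.84% lower, so a single call in a short list is no result about the list. Of 20 matrix metalloproteinases and inhibitors on a list that also holds CHIT1, 4 rose and none fell. The others were MMP7 (3.73, 3.70 and 3.46 against 5.37 and 5.59, log2 1.84, adjusted p = 0.00032), MMP10 (1.79, lost without the 24 h replicate 1 or 2 or either 48 h array, adjusted p up to 0.21) and the inhibitor TIMP1 (6.18, 6.31 and 6.43 against 7.68 and 7.58, log2 1.32, adjusted p = 0.0045, or 0.057 without the 48 h replicate 1). Of 20 integrins and adhesion receptors, ITGA1 (1.60) and ITGB3 (1.55) rose and VCAM1 (-1.90) and CD9 (-1.63) fell. ITGA1 was not called without either 48 h array, ITGB3 not without replicate 1 of them and VCAM1 not without replicate 2 (adjusted p up to 0.088, 0.16 and 0.073). The change of VCAM1 was -1.26 with normexp. Of 16 actin and SRF-type genes, ANKRD1 (2.76, or 1.05 with normexp) and CCN1 (2.24) rose. ANKRD1 was well above background on 2 of the 3 arrays of 24 h. In coagulation, of 17 tested, PROCR (1.06) and SERPINB2 (1.16) rose and F3, tissue factor, fell by 1.32. SERPINB2 lost its call without the 24 h replicate 2 or 3 or either 48 h array (adjusted p up to 0.19), and PROCR without replicate 2 of either time (up to 0.065). With normexp PROCR (0.94) and F3 (-0.87) were not called. Among 18 hypoxia targets VEGFA and NDRG1 (1.79) rose and EPAS1 fell by 1.44, VEGFA with the losses given above and EPAS1 not called without either 48 h array (adjusted p up to 0.064). Of 16 glycolysis genes 1 rose, ENO2 (1.35), whose call was lost in 9 of 13 settings, without either 48 h array and normexp, at 0.66, among them (adjusted p up to 0.29).

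Other lists held few calls or none. By the same rule 5.05% of all genes tested rose and 1.84% fell. The complement list had VSIG4 as its 1 call of 13, the Fc receptor list had FCGR2B (1.41) and FCGR3A (1.27) of 9, the Toll-like and NOD-like list had CD14 and PYCARD (1.23) of 15, the CD1 list had CD1C (1.08) of 4, and the autophagy list had WIPI1 (1.02) of 11. FCGR2B, CD1C and WIPI1 were not called without either 48 h array, CD1C also not without the 24 h replicate 1 and WIPI1 not without the 24 h replicate 2 or 3 (adjusted p up to 0.07, 0.12 and 0.069). With normexp FCGR2B (0.90), FCGR3A (0.85), CD1C (0.81) and WIPI1 (0.98) were not called. In the MHC class II list 1 of 11 rose, CD86, through a dim probe, while its brightest probe gave 2.16 with an adjusted p of 0.23. In the stress and amino acid response list the serine synthesis enzymes PSAT1 (-0.31, -0.31 and 0.03 against 2.20 and 1.104) and PHGDH (2.13, 1.88 and 2.81 against 4.45 and 3.46) rose of 18 tested, and neither was called without the 48 h replicate 1. No member was called of 27 genes of oxidative phosphorylation, 10 of heat shock, 12 housekeeping genes and 20 of ribosome biogenesis. The medians of these 4 lists were -0.04, -0.06, 0.05 and -0.48. In ribosome biogenesis all 20 values were below 0, from -0.79 (POLR1B) to -0.04, against 45.6% of all tested genes with values above 0.

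The levels of the lists on the 10 UT arrays place the step from 24 h to 48 h in the time course. The arrays of 8 h (2) share the slide of the 5 arrays, and 2 of the 3 arrays of 96 h were on another slide. Relative to the 24 h mean, the median over the 29 mitotic genes was 0.25 and 0.28 on the arrays of 8 h, 1.73 and 1.87 at 48 h and 3.37, 3.13 and 3.68 at 96 h, the first of these on the shared slide. The DNA replication genes were at -0.43 and -0.27, then 1.15 and 1.20, then 1.71, 1.72 and 2.14. The metallothionein list was at -0.17 and -0.03, then 1.40 and 1.53, then 2.21, 2.20 and 2.07. The interferon-stimulated genes were at -0.61 and -0.66, then -1.11 and -0.91, then -1.33, -1.43 and -1.27, so that 24 h held their highest level of the 4 times. Housekeeping genes stayed between -0.10 and 0.22. Single genes differed in course. INHBA was at 0.38 ± 0.04 (SD, n = 2) at 8 h and 0.90 ± 0.04 (n = 3) at 96 h, and CCL1 at 0.98 ± 0.04 and 1.99 ± 0.45, below their levels at 48 h. VSIG4 stood at 4.45 ± 0.16 and S100A8 at 5.81 ± 0.50 at 96 h, above 48 h. GNLY was at -4.07 ± 0.19 at 8 h and 1.27 ± 0.07 at 96 h. These levels are described and were not tested.

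**Figure D4:**
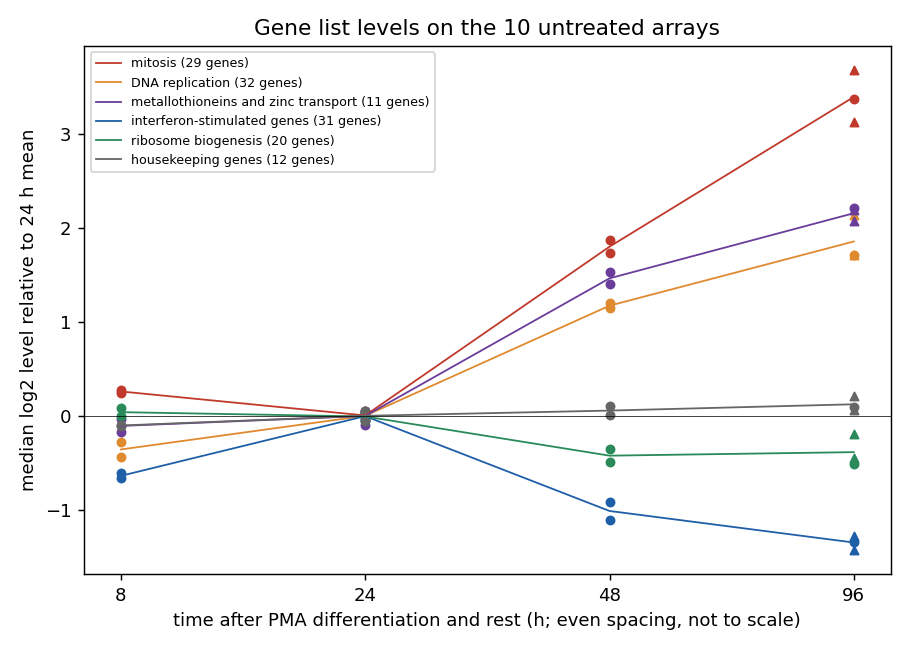
Median level of 6 gene lists on each of the 10 UT arrays (y axis, log2, relative to each gene's mean at 24 h) by time of culture (x axis, in h, evenly spaced), with circles for arrays on the slide of the 24 h and 48 h arrays, triangles for 2 arrays of 96 h on another slide, and lines through the means. The mitosis line goes from about its 24 h level at 8 h to 1.73 and 1.87 at 48 h, and the interferon-stimulated line has its highest point at 24 h.

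Cells given vit C were profiled at the same times on 2 arrays each, none on the slide of the 5 UT arrays, and share no sample with them. Of the 905 genes that rose in UT cells, 464 were also called higher from 24 h to 48 h with vit C (51.3%, or 49.9% of those called higher there), beside 4.98% of all genes tested with vit C. Of the 329 that fell, 142 also fell (43.2%, or 24.5% of those called lower there), beside 3.1%. A single gene in each direction was called the opposite way. In all, 8.07% of genes tested were called with vit C. The sign was shared by 93.7% of the 1234 called genes and by 68.7% of all tested, and the correlation of the changes over genes, which are not independent replicates, was 0.62 over all tested genes. The mitotic genes had a median of 2.14 with vit C, and 28 of the 29 rose. The DNA replication genes had a median of 0.52 with vit C, and 3 of the 32 rose, against 20 in UT cells, but the difference of the changes was called for no gene of that list. DTL, for example, changed by 0.10 with vit C and by 1.63 without (adjusted p of the difference 0.085). Interferon-stimulated genes had a median of -0.97 and 14 fell. Over 18126 genes tested for a difference between the UT and the vit C change, 24 were called (0.132%), 7 with the higher change in UT cells (0.0386%) and 17 with the lower (0.0938%), and 10 of them were among the genes called in UT cells. CHIT1 was among these, with a rise of 4.15 in UT cells and of 1.84 with vit C (difference 2.31, SE 0.39, adjusted p = 0.049). The CHIT1 difference was called in 6 of 17 other settings, and not on leaving out any 1 of the 5 UT arrays (adjusted p 0.097 to 0.114) or with a replicate block. The vit C arrays were on other slides.

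**Figure D5:**
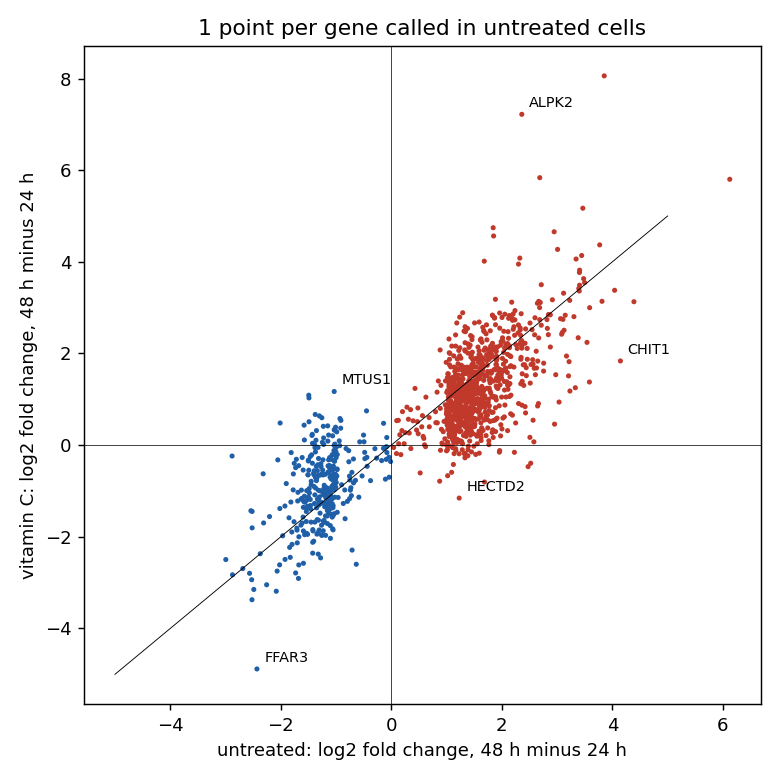
Log2 fold change from 24 h to 48 h in UT cells (x axis) and in cells given vit C (y axis), 1 point for each of the 1234 genes called in UT cells, red for those that rose and blue for those that fell, by the brightest probe; the diagonal marks equal changes. Of the points, 93.7% have the same sign on both axes, and labels mark 5 of the genes whose changes differed in the test of the difference.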

How the data were processed

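The deposited array files hold the processed intensity of each spot and its background flag, per the file headers from Agilent Feature Extraction 10.5.1.1 on a custom one-colour human array. The authors' series table holds log2 values after a 75th percentile shift, which equal the values used here up to a constant per array for the 50108 probes with 1 spot. Control spots were left out, log2 processed signals were averaged over the spots of a probe, less each array's own 75th percentile. One limma 3.58.1 fit (R 4.3.3) of 8 group means on 19 arrays gave the tests, all two-sided, with Benjamini-Hochberg adjustment over 50238 probes. A probe counted as measured when well above background on every array of 1 of the groups, and a gene takes the value of its brightest such probe. A bound sets the bright group's mean against, per array, the higher of the lowest signal well above background and the probe's own. The 15 largest changes per direction were named among genes with a symbol, measured on all 5 arrays and without overlap between the times. Up to 4 called members of each list per direction were also named, as were the macrophage markers. So were the 5 highest bounds per direction among genes with a symbol. Array names were updated through RefSeq (GRCh38.p14), which matched 19750 of 31033. Members and lists were chosen with earlier results of these data known. Alternatives were the methods' t-test, other fits, array weights, quantile normalization, normexp, a floor, other percentiles and filters, slide and replicate blocks, and leaving out each array. Some results are not reported here. The number of arrays limits the precision. The fit was tested on simulated data.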

Additional observations from a re-analysis of the deposited data

Results flagged for a closer look

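The change from 24 h to 48 h differed between UT cells and cells given vit C in a test of the difference itself for 8 genes with a current symbol that were also called in UT cells. Values are log2 changes, the difference is UT minus vit C, and each is from limma with 2 or 3 arrays a group. The vit C arrays of 24 h and 48 h were on other slides than the UT arrays. With slide as a block all 8 were called, but that fit gave the same differences as leaving out the vit C 48 h replicate 2. A replicate block by title number ended all 8 calls (adjusted p 0.0691 to 0.125), and one by description number left ALPK2 alone called (0.049). CHIT1 rose by 4.15 in UT cells and by 1.84 with vit C (difference 2.31, adjusted p = 0.049, called in 6 of 17 settings). SLC1A2, a glutamate transporter, rose by 2.83 and changed by 0.76 (difference 2.07, adjusted p = 0.045, called in 7 of 17 settings, and 0.76 with normexp). HECTD2, a ubiquitin ligase, changed by 1.23 and -1.15 (difference 2.38, adjusted p = 0.034), RASL11B by 1.03 and -0.92 (difference 1.94, adjusted p = 0.031) and MTUS1 by -1.03 and 1.17 (difference -2.20, adjusted p = 0.031), and these 3 moved in opposite directions and were called in 9 of 17 settings each. With normexp the differences were 1.08 for RASL11B and -0.96 for MTUS1, neither of them called, and 2.30 for HECTD2. FFAR3 fell on this probe by 2.32 on the log2 scale, and its vit C change was -5.44 (difference 3.12, adjusted p = 0.026), with neither array of 48 h well above background with vit C. The FFAR3 difference was 0.03 with normexp and 0.74 with a floor, and was called in 9 of 17 settings. ALPK2 changed by 2.36 and 7.22 (difference -4.86, adjusted p = 0.020, called in 15 of 17 settings) and GPX8 by 2.27 and 5.9995 (difference -3.73, adjusted p = 0.034, called in 9 of 17 settings). Neither of these was well above background at 24 h in either condition, so their changes and differences depend on signals at background. With normexp the differences were -2.75 for ALPK2 and -1.62 for GPX8.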

How the results depend on the processing

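The count of 1234 genes called between 48 h and 24 h fell to 681 when the 5 arrays were fitted alone, to 628 with normexp background correction, and to 0 with the methods' t-test after Benjamini-Hochberg adjustment, against 1587 by that test at its unadjusted threshold and 1821 by limma at unadjusted p. Leaving out 1 array gave 811 to 1158, the lowest without the 48 h replicate 2, where the 1 array left at 48 h was given the spread of the remaining arrays. The other settings stayed within 1.5 times of 1234. Mitotic genes called ranged from 21 to 25 on leaving out an array and DNA replication genes from 13 to 20, with 12 in the 5 arrays alone, and interferon-stimulated genes from 7 to 12 and CCL chemokines that fell from 4 to 7. Correlations of deviations from the group mean were -0.23 and 0.00 by title number and 0.00 and -0.26 by description number. With 2 arrays at 48 h the deviations mirror each other, so these values cannot decide whether replicate numbers pair the arrays. A replicate block by title number called 1084 genes and one by description number 1083. The 24 genes whose change differed from that with vit C became 42 with an intensity trend, 51 with array weights, 53 with quantile normalization, 38 with normexp, 182 with a floor, 5 and 6 with a replicate block by title and by description number, 91 with slide as a block, 11 among probes detected in every group, 1170 at unadjusted p and 3 to 94 on leaving out an array, so this count is not stable. Of 131 named genes called by their brightest probe, 75 were called under all 13 settings and the others lost the call in at least 1. Changes near 0 reversed: CSF1R to 0.0178 with quantile normalization, TYROBP to 0.15 with quantile normalization, 0.0316 with normexp and 0.0412 with the replicate block by title, and from -0.116 to 0.0743 on leaving out an array, and KRT19 from -0.25 to 0.84 on leaving out an array. The cause was not tested. The 13 settings hold neither the methods' t-test nor the fit of the 5 arrays alone.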
